A study of Mus musculus with 8 samples.

Results

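Collagens are the 42 genes described here, out of 27200 genes measured on 1-colour expression arrays of whole mouse lung. They were chosen by name only: every probe set (a group of array probes for 1 transcript) whose deposited gene symbol starts with Col, a number, a and a number was taken. That rule found 74 probe sets of 43 symbols. One symbol, Col4a3bp (now Cert1), belongs to a ceramide transfer protein and not to a collagen, so it was set aside. Each gene was represented by its brightest probe set, by mean over the 8 arrays. The 42 genes comprised 11 fibrillar collagens, the 6 type IV chains of basement membranes and 25 of other types. Col26a1 and Col6a5 are listed in the deposited table under other symbols (Emid2 and Gm7455), fell outside the rule and were not counted.

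The lungs came from BALB/c mice, all carrying an IL-1b transgene that doxycycline (dox) switches on, and the study asked which transcripts change when it is induced. The water group had 3 arrays and the dox group 5, and both groups carried the transgene. Lungs were collected after 7 days at about 12 weeks of age according to the sample labels, while a header in the deposited table gives 5 weeks. The promoter of the transgene is not named in the labels, dox-treated mice without it were not analysed here, and the labels do not say that each array is a separate animal. The p-values therefore measure the spread between these samples, which may be in part technical, and effects of dox and of IL-1b cannot be told apart.

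Across genes, r was 0.995 to 0.997 between arrays of the same group and 0.990 to 0.995 between a water and a dox array. Il1b intensity was 191 to 293 on the water arrays and 492 to 849 on the dox arrays, so the groups did not overlap; which share of it comes from the transgene was not tested. The lung transcripts Sftpc (surfactant protein C) and Scgb1a1 (the club cell secretory protein) were bright on every array, at 25427 to 26107 and 18337 to 19692 intensity units.

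Collagens are secreted proteins wound from alpha chains into a triple helix. Fibrillar collagens (types I, III and V in lung) form the cables that give the airway wall, vessels and septa their tensile strength, and fibroblasts make most of them. Type IV collagen forms the sheet of the basement membrane: chains from Col4a1 and Col4a2 occur in nearly every basement membrane, whereas the chains from Col4a3, Col4a4 and Col4a5 form a network typical of the alveolar and glomerular basement membranes. FACIT collagens sit on the surface of fibrils, and further types form filaments, anchor epithelium or cross the cell membrane.

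Of the 42 collagens, 1 rose and 2 fell in dox at an adjusted p under 0.05 (limma, adjusted over all genes), or 7.14%. This count stands against a background of 5.00% of all genes called in either direction, 3.48% higher and 1.52% lower. The rise was that of Col14a1, a FACIT collagen, and the falls were those of the type IV chains Col4a4 and Col4a6. For the brightest probe sets, log2 changes of dox minus water ran from -0.40 to 0.47. The median log2 change was 0.00 over the 42 collagens and -0.03 over all genes. The groups did not overlap for 6 collagens, 2 higher and 4 lower, against 14.2% of all genes (7.25% higher and 6.96% lower). Besides the genes called, these were Col11a2 (higher), Col4a3 and Col13a1 (lower). At an unadjusted p under 0.05, 8 collagens were higher and 7 lower, against 8.79% of all genes higher and 9.93% lower (18.7% in either direction).

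**Figure D1:**
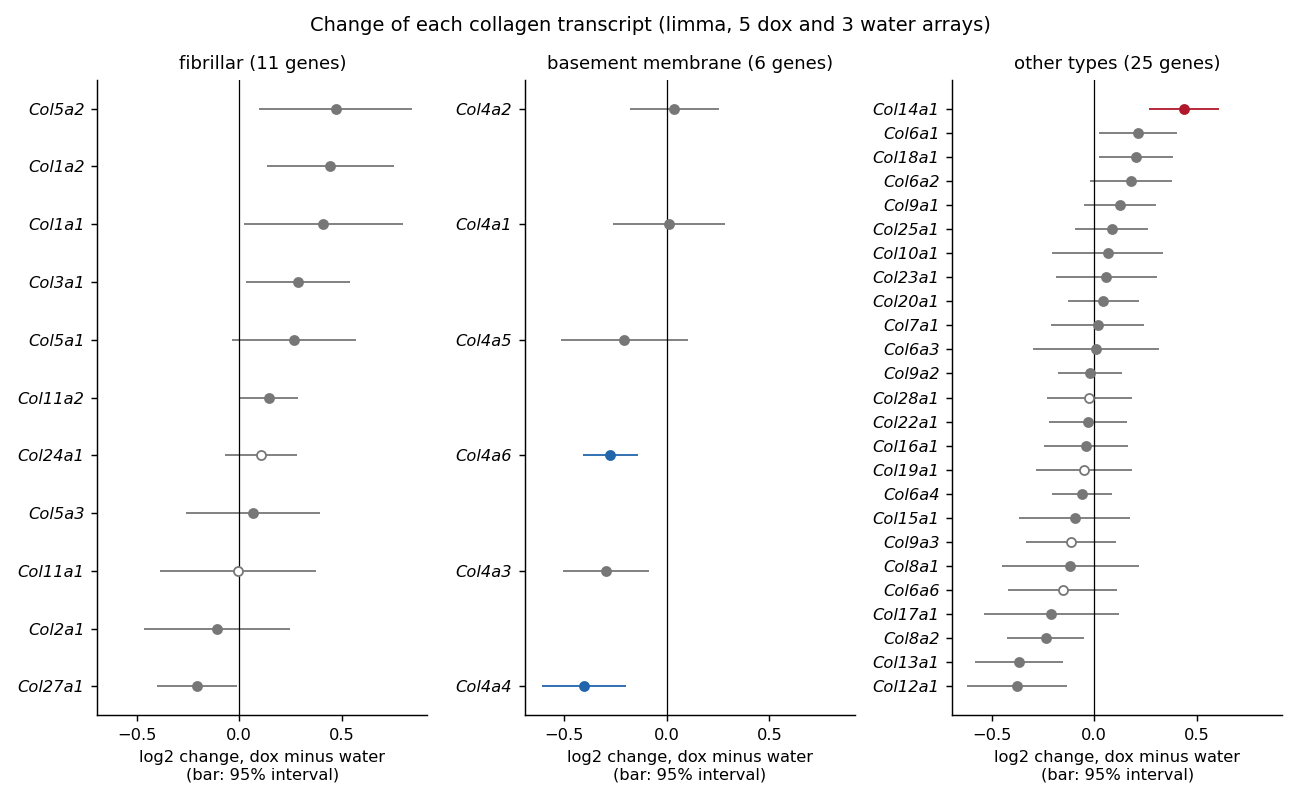
Log2 change (dox minus water, horizontal axis) of the 42 collagens in panels of 11 fibrillar, 6 basement membrane and 25 other genes; points are limma estimates, bars their 95% intervals, red and blue mark genes called higher and lower, grey those not called, and open points genes near the lower quartile of intensity. Only Col14a1 (red) and Col4a4 and Col4a6 (blue) are called.

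The type IV genes lie in head-to-head pairs that are transcribed in opposite directions: Col4a1 with Col4a2, Col4a3 with Col4a4, and Col4a5 with Col4a6. The stretches around their starts (250 bases before to 50 after each RefSeq start, assembly GRCm38.p6) are shown as a description only. Col4a3 is missing, as no window was available for it. Each reads 5′ to 3′ along its own gene, and capitals mark the letters CCAAT and GGGCGG on either strand. The window of Col4a1 is chr8:11312777-11313076 (minus strand), that of Col4a2 chr8:11312555-11312854 (plus), that of Col4a4 chr1:82586800-82587099 (minus), that of Col4a5 chrX:141475169-141475468 (plus) and that of Col4a6 chrX:141474027-141474326 (minus).
Col4a1: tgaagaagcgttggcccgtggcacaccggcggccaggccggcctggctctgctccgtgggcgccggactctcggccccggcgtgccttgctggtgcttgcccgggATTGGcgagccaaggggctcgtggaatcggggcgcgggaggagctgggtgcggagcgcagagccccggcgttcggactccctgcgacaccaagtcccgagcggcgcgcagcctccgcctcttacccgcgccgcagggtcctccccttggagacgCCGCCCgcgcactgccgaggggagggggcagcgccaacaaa
Col4a2: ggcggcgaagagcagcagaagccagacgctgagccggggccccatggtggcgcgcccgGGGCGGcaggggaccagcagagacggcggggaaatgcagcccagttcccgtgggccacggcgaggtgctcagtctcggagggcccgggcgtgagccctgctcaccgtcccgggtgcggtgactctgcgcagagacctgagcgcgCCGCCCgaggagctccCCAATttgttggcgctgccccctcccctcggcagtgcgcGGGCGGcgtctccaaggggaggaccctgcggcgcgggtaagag
Col4a4: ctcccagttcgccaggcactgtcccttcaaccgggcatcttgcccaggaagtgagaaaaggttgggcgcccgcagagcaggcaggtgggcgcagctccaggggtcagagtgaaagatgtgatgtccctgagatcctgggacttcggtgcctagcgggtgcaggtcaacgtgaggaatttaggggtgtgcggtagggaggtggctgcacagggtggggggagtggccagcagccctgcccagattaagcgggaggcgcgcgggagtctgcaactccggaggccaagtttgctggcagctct
Col4a5: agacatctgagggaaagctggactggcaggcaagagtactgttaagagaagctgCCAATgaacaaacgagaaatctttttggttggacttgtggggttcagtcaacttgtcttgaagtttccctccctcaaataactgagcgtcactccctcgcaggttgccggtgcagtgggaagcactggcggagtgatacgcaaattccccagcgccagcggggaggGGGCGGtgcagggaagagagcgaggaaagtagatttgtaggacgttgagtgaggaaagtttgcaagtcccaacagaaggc
Col4a6: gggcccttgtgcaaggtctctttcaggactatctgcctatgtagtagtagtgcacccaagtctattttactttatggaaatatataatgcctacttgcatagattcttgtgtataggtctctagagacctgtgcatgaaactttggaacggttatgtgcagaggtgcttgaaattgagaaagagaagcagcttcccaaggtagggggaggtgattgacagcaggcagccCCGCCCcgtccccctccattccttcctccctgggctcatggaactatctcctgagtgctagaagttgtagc

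The windows of Col4a1 and Col4a2 share 78 bases, which read as reverse complements, and the starts lie 21 bases apart. The starts of Col4a5 and Col4a6 lie 1343 bases apart. GC content was 74.0% and 73.7% in the windows of Col4a1 and Col4a2, 63.3% in that of Col4a4, 52.7% in that of Col4a5 and 48.3% in that of Col4a6; the median of all windows was 52.7%. The CCAAT letters occur in 3 of the 5 windows and the GGGCGG letters in 4, the window of Col4a4 holding neither. Of 37 windows matched to 34 collagens, GGGCGG was found in 22 (59.5%, against 35.7% of all 32851 windows), CCAAT in 13 (35.1% against 37.4%) and TATAAA in 5 (13.5% against 13.6%). The letters GGGACTTTC, part of an NF-kB motif, were found in 0 of 37 (0.353% of all windows) and the AP-1 letters TGANTCA in 1 of 37 (2.70% against 7.81%). All were searched on both strands, and no motif contains another. A match or its absence in a window is a description only.

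Col4a4 encodes a chain of the alveolar type IV network. Its intensity was 2989, 3324 and 2756 on water arrays 1, 2 and 3. On dox arrays 1 to 5 it was 2158, 2198, 2604, 2408 and 2071. Every dox array lay below every water array, although dox 3 came close to water 3. The level fell from a geometric mean of 3014 to 2280 (log2 change -0.40 ± 0.09 SE, adjusted p = 0.0322, limma; 3 water and 5 dox arrays). Leaving out water 1, water 2, dox 1, dox 2 or dox 5 removed the call, as did the mean of its 2 probe sets (adjusted p from 0.00788 to 0.20 over all alternatives). Its second, dimmer probe set missed the threshold (-0.21 ± 0.12 SE, adjusted p = 0.424).

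Col4a3, the head-to-head partner of Col4a4, encodes the chain that carries the Goodpasture autoantigen. Water arrays 1 to 3 gave 1433, 1547 and 1441. The dox arrays gave 1296, 1194, 1173, 1362 and 1008. The groups again did not overlap, dox 4 being nearest to water and dox 5 lowest. The log2 change was -0.30 ± 0.09 SE and did not pass (adjusted p = 0.114, limma; 95% interval -0.50 to -0.09). A second, dimmer probe set of Col4a3 had a log2 difference of -1.02 ± 0.35 SE and did not pass either (adjusted p = 0.164). With both averaged the log2 change was -0.66 (adjusted p = 0.0827).

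Col4a6 encodes a chain found with that of Col4a5 in basement membranes of smooth muscle and some epithelia. It was 268, 269 and 279 on the water arrays. The dox arrays gave 232, 217, 222, 237 and 216. Both groups were tight and clearly apart. The level fell from 272 to 225 (log2 change -0.28 ± 0.06 SE, adjusted p = 0.0287, limma). This call was lost without any 1 water array, without dox 2, 3 or 5 and with the mean of its 2 probe sets (adjusted p from 0.0157 to 0.190 over all alternatives). Its second probe set had a log2 difference of -0.18 ± 0.08 SE (adjusted p = 0.318).

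Col4a5, the partner of Col4a6 on the X chromosome, was 2300, 2467 and 1637 on the water arrays. The dox arrays gave 1613, 1954, 1967, 2047 and 1574. Water 3 lay among the dox values, and the groups overlapped. The log2 change of -0.21 ± 0.14 SE did not pass (adjusted p = 0.481, limma). It ran from -0.39 to -0.09 when single arrays were left out, lowest without water 3 and nearest to 0 without water 2.

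The chains of the ubiquitous network showed nearly equal group means. Col4a1 was 6475, 7968 and 5960 on the water arrays and 5478, 6658, 7508, 7022 and 7597 on the dox arrays. Its log2 change was 0.01 ± 0.12 SE (95% interval -0.26 to 0.28, adjusted p = 0.972, limma). Col4a2 was 4536, 5124 and 4147 on the water arrays and 4000, 4539, 5131, 4885 and 5067 on the dox arrays. Both genes thus had overlapping groups, with water 2 the highest and water 3 the lowest of the water arrays and dox 1 the lowest of the dox arrays. The log2 change of Col4a2 was 0.04 ± 0.10 SE (95% interval -0.18 to 0.26, adjusted p = 0.885, limma), and -0.15 with its probe sets averaged.

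**Figure D2:**
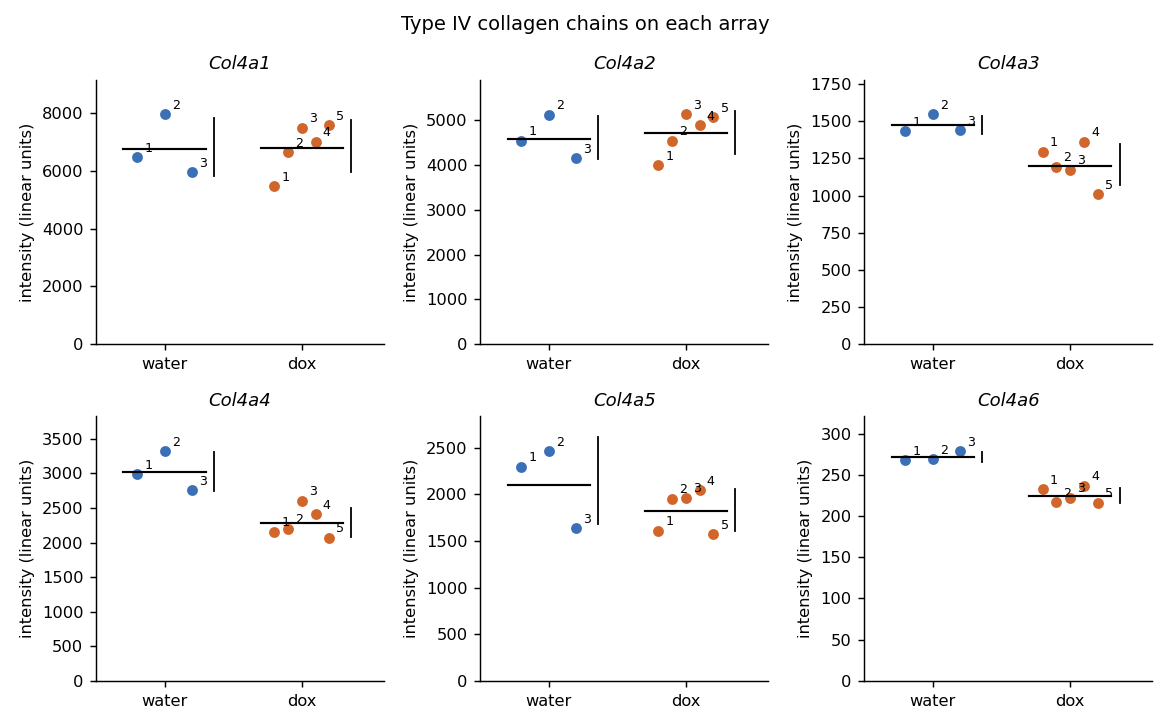
Intensity (linear units, vertical axis from 0) of the 6 type IV chains on each array, with water in blue, dox in orange and replicate numbers beside the points; horizontal lines are geometric means and vertical bars 1 SD of the log2 values around them. Col4a3, Col4a4 and Col4a6 have all 5 dox points below all 3 water points, whereas Col4a1, Col4a2 and Col4a5 overlap.

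Ratios of 2 chains on the same array were compared for 11 pairs, chosen as chains that assemble together, head-to-head partners, or members of the ubiquitous and alveolar type IV networks. The log2 ratio of Col4a2 to Col4a4 was 0.60, 0.62 and 0.59 on the water arrays. On the dox arrays it was 0.89, 1.05, 0.98, 1.02 and 1.29. All dox ratios lay above all water ratios, which were nearly identical. The log2 ratio was 0.44 higher in dox (means 0.61 ± 0.02 SD, n = 3, and 1.05 ± 0.15 SD, n = 5; exact permutation test, 2-sided p = 0.0357, the smallest that 3 against 5 arrays can give). Adjusted over the 11 pairs it did not pass (p = 0.393, exact permutation test). With the mean of all probe sets of each gene the difference was 0.16.

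Other pairs had overlapping ratios. The ratio of Col4a1 to Col4a3 was 0.31 higher in dox on the log2 scale (exact permutation p = 0.143; adjusted p = 0.393 over the pairs), with dox 1 within the water range. That difference was 0.67 with the mean of probe sets. For head-to-head partners the differences were -0.03 (Col4a1 to Col4a2), 0.11 (Col4a3 to Col4a4) and 0.07 (Col4a5 to Col4a6). With the mean of probe sets the first became 0.16 and the second -0.35, so these signs depend on the probe sets used. The ratio of Col1a1 to Col1a2, the chains of type I collagen, differed by -0.03, with means of -0.93 ± 0.14 SD in water and -0.97 ± 0.10 SD in dox. Col5a1 to Col5a2 differed by -0.20 and Col6a1 to Col6a3 by 0.20, and each overlapped between groups.

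**Figure D3:**
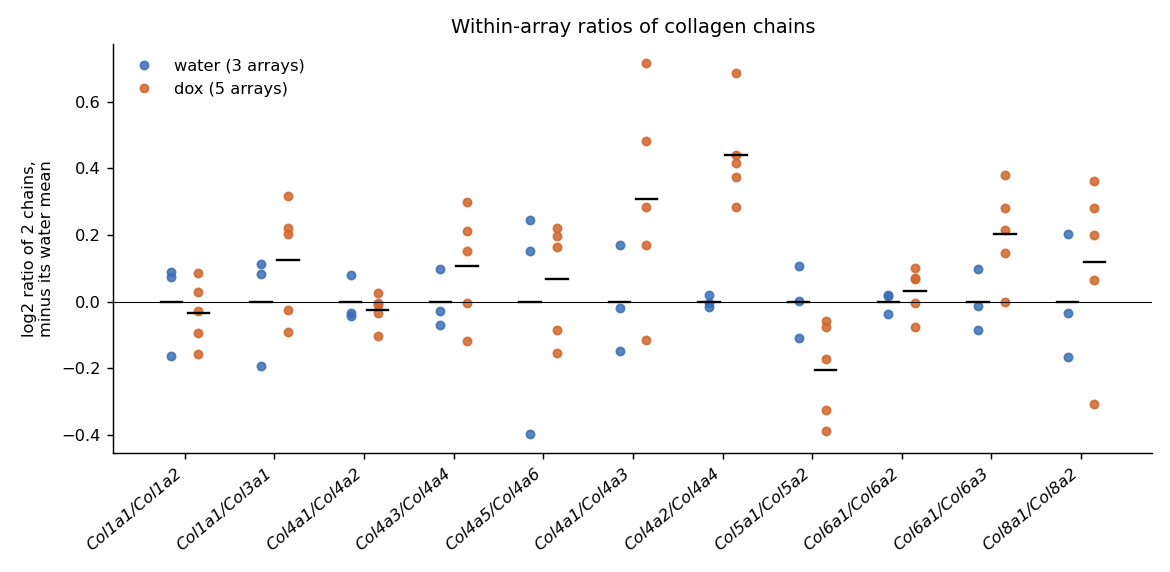
Log2 ratio of 2 collagen chains on each array, minus the mean of that ratio over the water arrays (vertical axis), for 11 pairs; points are arrays (3 water in blue, 5 dox in orange) and short lines are group means. For Col4a2/Col4a4 alone every dox point lies above every water point, 0.44 higher on average.

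Col14a1, a FACIT collagen bound to the surface of type I fibrils, was the only collagen called higher. Its intensity was 305, 361 and 333 on water arrays 1 to 3. On dox arrays 1 to 5 it was 421, 424, 451, 478 and 478. The lowest dox array stood clear of the highest water array. The rise was from 332 to 450, or 1.35-fold (log2 change 0.44 ± 0.08 SE, adjusted p = 0.00893, limma). It passed without any single array (log2 change 0.38 to 0.50), and over all alternatives its adjusted p ran from 0.00200 to 0.110, so that 1 of them ended the call. A second probe set of Col14a1 had a log2 difference of 0.23 ± 0.07 SE and did not pass on its own (adjusted p = 0.130).

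Col12a1, a related FACIT collagen that also binds type I fibrils, did not pass. It was 154, 170 and 139 on the water arrays and 112, 144, 121, 118 and 101 on the dox arrays. Dox 2 lay above water 3, and the other 4 dox arrays lay below all water arrays. The log2 change was -0.38 ± 0.11 SE (adjusted p = 0.0852, limma; 95% interval -0.62 to -0.13). It passed without dox 2 (-0.45, adjusted p = 0.0327; 0.0327 to 0.238 over all alternatives). The 95% interval of Col14a1 was 0.26 to 0.61. Col14a1 and Col12a1 had the largest FACIT changes each way, and their difference was not tested. The other 7 FACIT genes had log2 changes from -0.11 to 0.13.

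None of the 11 fibrillar collagens passed in limma. At an unadjusted p under 0.05, which 8.79% of all genes reach as higher and 9.93% as lower, 5 fibrillar genes were higher and 1 lower. Col1a1 was 1281, 1938 and 1400 on the water arrays and 1488, 1844, 2528, 2226 and 2139 on the dox arrays. Col1a2 was 2742, 3517 and 2515 on the water arrays and 3033, 3926, 4549, 4172 and 4171 on the dox arrays. Both type I chains were thus highest in water 2 among water arrays and lowest in dox 1 among dox arrays, and in both dox 1 lay below water 2. For Col1a1 dox 2 lay below water 2 as well. The log2 change of Col1a1 was 0.41 ± 0.17 SE (adjusted p = 0.238, 95% interval 0.02 to 0.80). That of Col1a2 was 0.44 ± 0.14 SE (adjusted p = 0.109, 95% interval 0.13 to 0.75). Without dox 1 Col1a2 passed (0.54, adjusted p = 0.0299; 0.0299 to 0.308 over all alternatives).

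Col3a1, the chain of type III collagen, was 10127, 12655 and 8954 on the water arrays. The dox arrays gave 10953, 12957, 14035, 13200 and 12832. Again only dox 1 lay below water 2. The log2 change was 0.28 ± 0.11 SE (adjusted p = 0.210, limma; 95% interval 0.03 to 0.54). The second probe sets had larger values than the brightest ones without passing: 0.60 ± 0.21 SE for Col3a1 (adjusted p = 0.175), 0.67 ± 0.19 SE for Col1a2 (adjusted p = 0.0890) and 0.59 ± 0.15 SE for Col5a2 (adjusted p = 0.0699). Type V collagen sets the diameter of type I fibrils. Its chain Col5a2 was 670, 936 and 593 on the water arrays and 750, 1136, 1185, 965 and 1009 on the dox arrays, with a log2 change of 0.47 ± 0.17 SE (adjusted p = 0.159). For Col5a1 the log2 change was 0.27 ± 0.14 SE (adjusted p = 0.331), and 4 of 5 dox arrays lay above all water arrays for both genes. Col5a3 had a log2 difference of 0.07.

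The 5 chains Col1a1, Col1a2, Col3a1, Col5a1 and Col5a2 shared their extreme arrays. Water 2 was the highest water array and dox 1 the lowest dox array for each of the 5. Several other collagens had the same order, among them Col4a1, Col4a2, Col5a3, Col6a1, Col6a2, Col14a1 and Col18a1, whereas Col4a3 to Col4a6 did not. The log2 value minus the gene's water mean was summarised by its median over the 6 chains of types I, III and V, Col5a3 included. Water arrays stood at -0.09, 0.28 and -0.19. Dox arrays 1 to 5 stood at 0.02, 0.37, 0.54, 0.39 and 0.46. Within-group spread was accordingly wide: the median SD within groups was 0.23 (log2) for fibrillar genes, 0.14 for type IV chains, 0.14 for other types and 0.12 for all genes. The cause of this shared order was not tested.

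**Figure D4:**
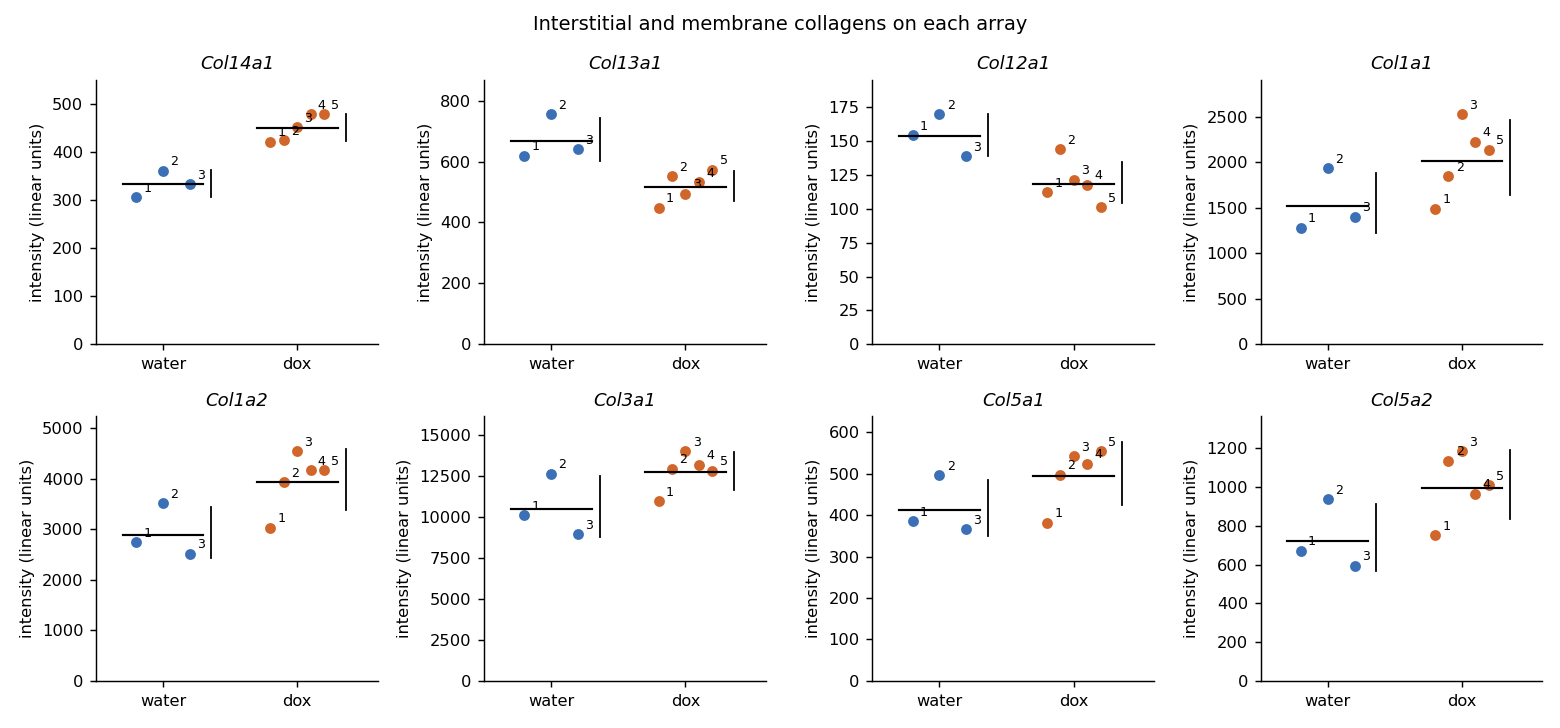
Intensity (linear units, vertical axis from 0) of Col14a1, Col13a1, Col12a1 and 5 fibrillar chains on each array, with water in blue, dox in orange and replicate numbers beside the points; horizontal lines are geometric means and vertical bars 1 SD of the log2 values around them. Col14a1 (higher) and Col13a1 (lower) separate the groups, and in the fibrillar chains dox 1 lies below water 2.

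Among further fibrillar genes, Col11a2, a chain of cartilage type XI collagen, was 23.7 to 24.6 on the water arrays and 25.3 to 28.2 on the dox arrays. The groups did not overlap, but the log2 change of 0.14 ± 0.06 SE did not pass (adjusted p = 0.259). Col27a1 was the lowest of the class at -0.21 ± 0.09 SE (adjusted p = 0.242), and Col2a1, the main cartilage collagen, had a log2 difference of -0.11 ± 0.16 SE. Col11a1 and Col24a1 had group means under 14.5 units, the upper end of the arrays' lower quartiles (13.9 to 14.5), and such dim signal may be background. The same held for Col6a6, Col9a3, Col19a1 and Col28a1, so 36 of the 42 collagens remained with a signal above that level in at least 1 group. All 42 were tested.

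Type VI collagen forms beaded filaments between fibres and cells. Its chains Col6a1 and Col6a2 had log2 changes of 0.21 ± 0.09 SE (adjusted p = 0.215) and 0.18 ± 0.09 SE (adjusted p = 0.321), each with 4 of 5 dox arrays above all water arrays, and Col6a3 had a log2 difference of 0.01 ± 0.14 SE. Among collagens that cross the membrane, Col13a1 was 619, 756 and 640 on the water arrays. The dox arrays gave 448, 551, 494, 532 and 573. Every dox array lay below every water array. The log2 change was -0.37 ± 0.10 SE and narrowly missed the threshold (adjusted p = 0.0565, limma; 95% interval -0.58 to -0.15). It passed with the trend and robust prior (0.0210), with repeated quantile normalization (0.0437) and without the dimmest genes (0.0470), within a range of 0.0210 to 0.184.

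The other members gave no call. Col17a1, a hemidesmosome collagen of basal epithelial cells, had a log2 difference of -0.21 ± 0.15 SE and Col7a1, which forms anchoring fibrils, of 0.02 ± 0.10 SE. The network-forming Col8a2 and Col8a1 had a log2 difference of -0.24 ± 0.09 SE and -0.12 ± 0.15 SE, and Col10a1, of growth plate cartilage, of 0.07 ± 0.12 SE. The dimmest of the 3 Col8a1 probe sets passed on its own (-0.43 ± 0.09 SE, adjusted p = 0.0221), at a mean of 14.4 units, at the level of the lower quartile. Of the multiplexins of vascular basement membranes, Col18a1, the precursor of endostatin, had a log2 difference of 0.20 ± 0.08 SE (adjusted p = 0.207; for a second probe set -0.13, and 0.03 with probe sets averaged) and Col15a1 of -0.10 ± 0.12 SE. The membrane-spanning Col25a1 and Col23a1 and the type VI chain Col6a4 had log2 changes from -0.06 to 0.09.

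By class, fibrillar collagens had 8 of 11 changes above 0 and a median log2 change of 0.14, type IV chains 2 of 6 and -0.24, and other types 11 of 25 and -0.02. Without the dimmest genes the fibrillar median was 0.27, over 9 genes. These medians are descriptions without a test, and the median over all genes was -0.03. Array by array, the type IV median (log2 value minus the gene's water mean) was -0.37 to -0.08 on the dox arrays and -0.14 to 0.15 on the water arrays, which overlapped. The fibrillar median was -0.03 to 0.28 on the dox arrays and -0.18 to 0.27 on the water arrays, which overlapped too. Of the 22 collagens with several probe sets, all probe sets had changes of 1 sign in 17. Tested each on its own, 4 of the 71 collagen probe sets passed (5.63%; 1 each of Col4a4, Col4a6, Col14a1 and Col8a1), against 3.10% of all probe sets.

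Genes that act with collagens were counted in 7 lists of 117 genes, chosen from their roles with earlier results of these data known. Of these genes, 13 rose and 5 fell (15.4% called, against 5.00% of all genes). The listed genes were also brighter, by median intensity, than all genes. The percentages are therefore a description only, and an excess of calls in the lists was not tested. Of 22 genes for folding and secretion of procollagen, 2 rose and 1 fell, against 3.48% and 1.52% of all genes. Their median log2 change was 0.10. Plod3, which hydroxylates and glycosylates lysines of collagen, rose by 0.33 ± 0.07 SE (adjusted p = 0.0211), and the collagen chaperone Serpinh1 (HSP47) by 0.40 ± 0.10 SE (adjusted p = 0.0459). Colgalt2 (Glt25d2 on the array), a collagen galactosyltransferase, fell by 0.26 (SE 0.06, adjusted p = 0.0399). Without water 1, water 3 or dox 2 none of the list rose in limma, and the fall passed only without dox 3 among the sets with 1 array left out. Of 15 genes for propeptide cleavage and crosslinking none passed in limma at an adjusted p under 0.05, and 2 were lower at an unadjusted p under 0.05 (9.93% of all genes). The smallest p was that of Pcolce2, a procollagen processing enhancer (log2 change -0.31 ± 0.09 SE, adjusted p = 0.0739), followed by Pxdn, which crosslinks type IV collagen (-0.30 ± 0.09 SE, adjusted p = 0.0902), and both passed with the trend and robust prior. The protease Tll1, which trims procollagens, had -0.19 (adjusted p = 0.284).

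Of 15 genes for degradation and uptake of collagen, 5 rose and none fell, against 3.48% and 1.52% of all genes, with a median of 0.32. Mmp8, the neutrophil collagenase, rose from 57.5 to 294 (log2 change 2.35 ± 0.20 SE, adjusted p = 7.64e-05). The cysteine protease cathepsin K, Ctsk, which can cut the collagen triple helix, rose from 374 to 809 (1.11 ± 0.09 SE, adjusted p = 6.56e-05). Mrc1, a mannose receptor that takes up collagen, rose from 895 to 1767 (0.98 ± 0.08 SE), and Mmp3 rose by 1.49 ± 0.21 SE. Ctsb rose by 0.32 ± 0.06 SE, a call lost without any 1 water array (adjusted p up to 0.140 over the alternatives). Without single arrays the list held 4 to 7 rises, the 7 without dox 1.

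Of 18 fibril-binding proteoglycans and partners, 3 rose and 3 fell (median -0.12), against 3.48% and 1.52% of all genes. Tgfbi, an adhesion protein that binds collagen, rose by 1.18 ± 0.09 SE (adjusted p = 4.08e-05), fibronectin Fn1 by 0.58 ± 0.12 SE (adjusted p = 0.0223) and podocan Podn by 0.38 ± 0.09 SE (adjusted p = 0.0369). Dermatopontin Dpt, which promotes fibril assembly, fell by 0.33 (SE 0.06, adjusted p = 0.0105), fibromodulin Fmod by 0.43 (SE 0.09, adjusted p = 0.0182) and Ogn by 0.36 (SE 0.09, adjusted p = 0.0488). Without single arrays the list held 1 to 3 rises and 1 to 4 falls, and only Tgfbi and Dpt of these 6 passed in every such set. Of 17 basement membrane partners, 1 rose (median 0.06), against 3.48% of all genes. It was Smoc2, which went from 264 to 490 (log2 change 0.89 ± 0.12 SE, adjusted p = 0.00189, limma). The laminin chain Lama1 missed the threshold (log2 change 0.28, adjusted p = 0.20).

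Of 10 collagen receptors 1 rose, against 3.48% of all genes. It was the type III collagen receptor Adgrg1 (Gpr56 on the array), at 0.30 ± 0.07 SE (adjusted p = 0.0353, limma). Adgrg1 passed in 1 of the 8 sets with an array left out. The integrin Itga11, a fibroblast receptor for type I collagen, did not pass (-0.24 ± 0.07 SE, adjusted p = 0.0872), nor did the collagen-binding integrin Itga1 (-0.17, adjusted p = 0.362). Of 20 inducers of collagen genes, 1 rose and 1 fell (median -0.09), against 3.48% and 1.52% of all genes. The TGF-beta receptor Tgfbr1 rose by 0.56 ± 0.07 SE (adjusted p = 0.00151), and the transcription factor scleraxis, Scx, fell by 0.38 (SE 0.08, adjusted p = 0.0214), a call lost without water 1 or water 2. Connective tissue growth factor, Ccn2 (Ctgf on the array), had a log2 change of -0.38 ± 0.10 SE (adjusted p = 0.0520).

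**Figure D5:**
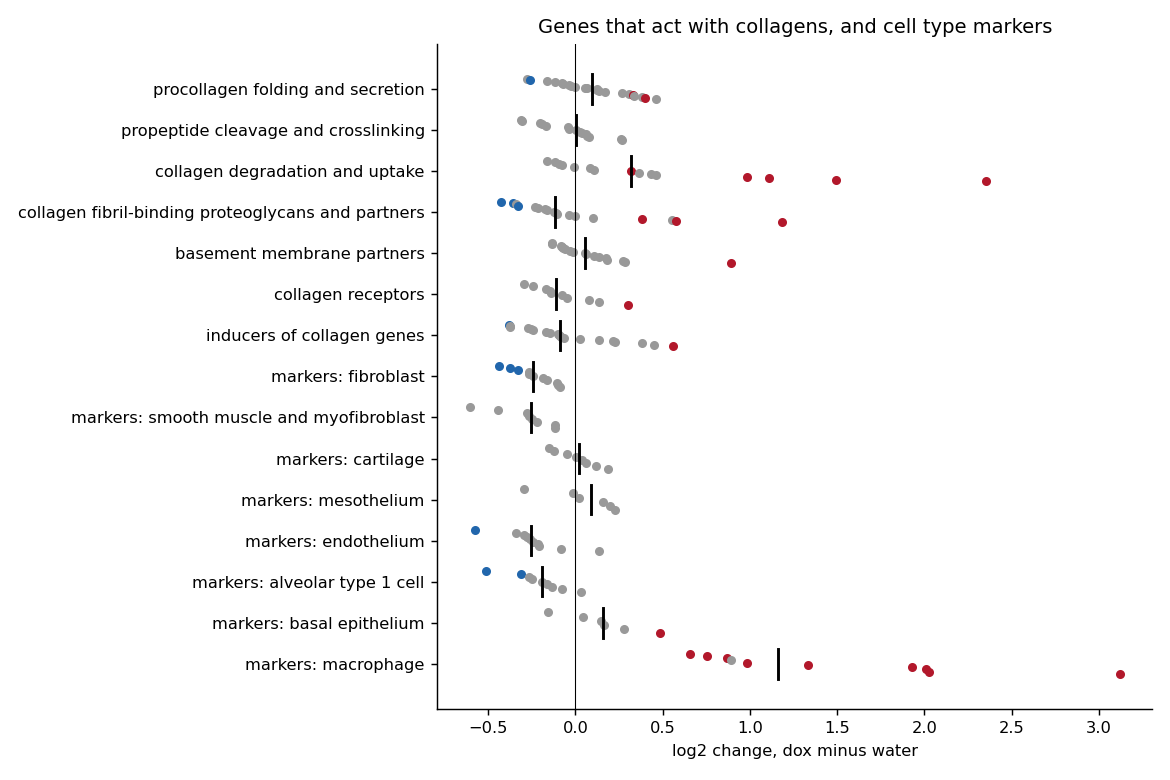
Log2 change (dox minus water, horizontal axis) of each gene in 7 lists of genes that act with collagens and 8 lists of cell type markers; red and blue points were called higher and lower, grey points were not called, and black bars are list medians. The degradation list reaches 2.35 (Mmp8) and the macrophage markers 3.12 (Mmp12), whereas fibroblast, endothelial and alveolar type 1 markers lie mostly below 0.

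Markers of cell types that make or meet collagen were compared in the same way. In whole lung, fewer cells of a type and less RNA per cell cannot be told apart. Of 10 macrophage markers 9 rose (median 1.16), against 3.48% of all genes. Their summed intensity was 4348 to 4491 on the water arrays and 9346 to 12697 on the dox arrays. The 9 included Mmp12 (log2 change 3.12), C1qa (1.93) and C1qb (2.03). Mrc1, counted above for uptake, is also in that list. Of 11 fibroblast markers 3 fell (Dpt, Meox2 and Tcf21), against 1.52% of all genes, with a list median of -0.24. Tcf21 was called although dox 4 lay above water 1. Sums over the 11 markers were 20897 to 24149 on the water and 16796 to 20725 on the dox arrays, which did not overlap. Col14a1 rose while these sums were lower, and their part in the fibrillar results was not tested. With single arrays left out, 3 fibroblast markers fell without dox 4, 1 without water 2 or water 3, and 2 in every other set. Tcf21 passed only without dox 4 or water 1, and the call of Meox2 was lost without any 1 water array.

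Of 10 endothelial markers 1 fell (Ednrb, -0.57 ± 0.13 SE), against 1.52% of all genes. The list median was -0.25, with sums of 31265 to 34221 in water and 27138 to 30340 in dox. Leaving out water 1, water 2, dox 1, dox 2 or dox 3 removed the call of Ednrb, and 2 markers of the list fell without water 3. Of 9 alveolar type 1 cell markers 2 fell (Igfbp6 and Sema3a), against 1.52% of all genes. The median of this list was -0.19, and its sums were 43966 to 44548 in water and 36879 to 41239 in dox. Both calls were lost when dox 2, dox 5, water 1 or water 3 was the array left out. With dox 4 left out, this list held 3 falls. The endothelial and alveolar type 1 sums did not overlap between groups. Of the type IV chains, Col4a3 to Col4a6 had lower group means in dox, whereas Col4a1 and Col4a2 had log2 changes of 0.01 and 0.04. The part of these cell types in the type IV values was not tested. Of 8 smooth muscle markers none passed in limma (3 lower at an unadjusted p under 0.05, against 9.93% of all genes; median -0.26; sums 1490 to 1923 in water and 1081 to 1521 in dox), and desmin, Des, passed without dox 5 or water 1. Of 8 cartilage markers none passed either, with 0 at an unadjusted p under 0.05 (median 0.02); sums were 238 to 258 and 223 to 270, and 4 of them lay below the lower quartile, as did the cartilage collagens Col9a3 and Col11a1. Mesothelial markers gave 0 calls in limma among 6 (1 higher and 1 lower at an unadjusted p under 0.05, against 8.79% and 9.93% of all genes; median 0.09; sums 3601 to 4002 in water and 3337 to 4036 in dox). Summed basal cell markers were 180 to 190 in water and 199 to 216 in dox. Of 6 basal cell markers 1 rose, Trp63 (0.49 ± 0.12 SE), against 3.48% of all genes. Trp63 passed without dox 1 but in no other set with an array left out.

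Markers next in order of p, none of which passed, had these log2 changes. Among endothelial genes Kdr had -0.30 and Cldn5 -0.24, and among alveolar type 1 genes Cav1 had -0.25. The smooth muscle genes Cnn1, Des and Myh11 had -0.60, -0.44 and -0.28. The mesothelial genes Msln, Upk3b and Wt1 had 0.23, -0.29 and 0.20, and the basal cell genes Aqp3 and Ngfr 0.28 and 0.16. The cartilage genes Cnmd, Snorc and Sox9 had 0.19, -0.15 and 0.12.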

How the data were processed

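The values are 1-colour array intensities of whole lung from 3 water and 5 dox samples, which the authors deposited on a linear scale in the series table. They were summarised with RMA per the submitters' processing notes; its version and settings are not given in the sources used here. Here they were put on the log2 scale (no pseudocount) without further normalization. A second deposited table of the same series supplied gene symbols, and its 8 intensity columns, whose names match no sample label, were not used.

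Symbols of 43681 probe sets were updated through accessions (17218 probe sets), current symbols (13435) or older ones (1890), kept as given (4450), or absent (6687); 1 had several. Each of 27200 genes was represented by its brightest probe set on average. Groups were compared in R 4.3.3 by a limma 3.58.1 linear model with no covariate and moderated 2-sided tests; p-values were adjusted by Benjamini-Hochberg across the 27200 genes, and 0.05 was the threshold. Chain ratios were compared with exact permutation tests in scipy 1.17.1. The limma fit was tested on simulated data with known changes.

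Collagen members were taken by name. The family, its classes and the gene lists were chosen with earlier results of these data known. The genes named are the collagens past the threshold, all type IV chains, Col1a1, Col1a2 and Col3a1, the brightest, most changed and smallest-p collagen of each class and the 3 smallest-p genes of each list, 1 of which is not reported here. Other genes named were chosen after their values were seen. Alternatives were other summaries of probe sets, normalizations, filters and priors, array weights, a replicate block and leaving out each array. Deviations of water and dox arrays with the same replicate number correlated with r of 0.01, 0.06 and -0.16, so the numbers were not taken to pair the samples. The number of arrays limits the precision of all values.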

Additional observations from a re-analysis of the deposited data

Results flagged for a closer look

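For 3 collagens, 1 of the 5 dox arrays lay far from the others by Dixon's ratio of its gap to the whole range, for which the 95% critical value is 0.71. The array was dox 1 each time, and it was the lowest. For Col23a1, a membrane-spanning collagen, dox 1 was at 641 and the other dox arrays at 750 to 777 (ratio 0.820). For Col8a1, a network-forming collagen, it was at 82.7 against 118 to 133 (ratio 0.748). For Col15a1, a multiplexin, it was at 42.4 against 51.0 to 54.9 (ratio 0.715). Chance gives such a value in about 1 in 20 groups, and 42 collagens were examined. None of these 3 genes passed the comparison of the groups.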

How the results depend on the processing

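With the replicate block, 0 collagens were higher and 0 lower, and 7 pathway genes were higher and 0 lower, against 1, 2, 13 and 5 without it; Col14a1 then had 0.38 (adjusted p = 0.110). The replicate numbers were not shown to pair the samples. Leaving out single arrays gave 1 to 2 collagens higher (2 without dox 1), 0 to 2 lower, 7 to 13 pathway genes higher and 1 to 6 lower. The collagens lower numbered 0 without dox 5, water 1 or water 2 and 1 without dox 1, 2 or 3 or water 3. Pathway genes higher numbered 8 without dox 2 or water 1 and 7 without water 3. Pathway genes lower numbered 3 without dox 1, 2 or 5, 1 without water 1 or 2 and 2 without water 3. With probe sets averaged per gene, 0 collagens were lower, and the log2 ratio differences were 0.16 (Col4a1/Col4a2), -0.35 (Col4a3/Col4a4), 0.67 (Col4a1/Col4a3) and 0.16 (Col4a2/Col4a4). Pathway genes lower numbered 3 with array medians subtracted, with array weights and with every probe set on its own, and 11 with the trend and robust prior. The class medians stayed within the spread between replicates: 0.12 to 0.23 (fibrillar), -0.28 to -0.18 (type IV) and -0.05 to 0.01 (other types) when single arrays were left out, and the fibrillar one was 0.27 without the dimmest genes. Causes of these differences were not tested. Calls near the threshold rest on few arrays, and 6 collagens lie too close to the lower quartile of intensity for a change to be read.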

Other observations

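The 2 collagens that the deposited table lists under other symbols gave no call. Col6a5, a type VI chain, was 6.84 to 8.01 on the water arrays and 8.21 to 9.91 on the dox arrays, which did not overlap, with a log2 change of 0.28 ± 0.09 SE (adjusted p = 0.0964, limma). Both groups lay below the lower quartile of intensity. Col26a1 was 15.7 to 16.9 on the water arrays and 16.1 to 18.7 on the dox arrays (log2 change 0.07 ± 0.07 SE, adjusted p = 0.668, limma).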
